A study of Mus musculus with 21 samples.

Results

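The comparison asks whether the difference in colon gene expression between germ-free Card9-/- and germ-free WT mice changed between the start and the end of a 7-day exposure to dextran sulfate sodium (DSS). It was computed on all 21 arrays of the series, as the log2 difference between genotypes at day 7 minus the log2 difference between genotypes at day 0, and is called the contrast from here on. The 2 days were hybridized to different Agilent designs, and day and design cannot be told apart. Expression at day 7 was therefore never set against day 0 within a genotype. Only probes found by name on both designs were used, which were 30629 of the 81657 probes on either design, and all 30629 had the same sequence on both. Of these, 23633 probes (16274 named genes) were detected at both days and tested.

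The arrays fell into 4 groups, with 7 arrays labelled GF Card9-/- and 6 labelled GF WT taken at day 0, and 4 of each at day 7. All mice were male, on a C57BL/6J background and free of microbes. The labels give DSS as the treatment of all 21 samples, although the day 0 colons were taken before it. The day 7 colons came after 7 days of 2% DSS in the drinking water. Total RNA came from whole colon tissue, so fewer cells of a type and less RNA per cell cannot be told apart. The labels give neither the age of the mice nor which mice shared a cage or a litter, and p-values measure only the spread between these samples. Day 0 replicates bore the numbers 1 to 7 or 1 to 6. The day 7 replicates were 2, 2.1, 4 and 6 for Card9-/- and 1, 4, 5 and 6 for WT.

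CARD9 is an adaptor protein of myeloid cells that relays signals from C-type lectin receptors, which sense fungi and bacteria, to NF-kappaB. DSS damages the colon epithelium, and the resulting colitis is followed by regrowth of crypts and by the recruitment of monocytes and neutrophils. A contrast above 0 means that the day 7 difference lay further toward higher expression in the arrays labelled GF Card9-/- than the day 0 difference did, and a contrast below 0 means the opposite.

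The signal of Card9 itself went against the labels. None of its probes was on both designs, so Card9 has no contrast, and its probes were read within each day. The 3 probes with a Card9 signal are given here as the check of the genotype, with the 43 bases that the first day 0 probe shares with the day 7 probe in capitals.
Card9 A_66_P128849, day 0, chr2:26208066-26208504: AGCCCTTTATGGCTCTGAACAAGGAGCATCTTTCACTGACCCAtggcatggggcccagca
Card9 A_55_P1986722, day 7, chr2:26208462-26208521: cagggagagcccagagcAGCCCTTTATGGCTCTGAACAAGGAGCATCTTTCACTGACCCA
Card9 A_66_P135237, day 0, chr2:26212384-26212744: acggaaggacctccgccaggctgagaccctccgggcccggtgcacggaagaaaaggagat
Positions are those of the deposited annotation (mm9, NCBI37), which gives no strand. At day 0 the log2 signal of A_66_P128849 was 8.71 at the lowest, 8.88 at the median and 9.24 at the highest in the arrays labelled GF Card9-/-. It was 2.30 to 2.33 in those labelled GF WT, none of which was well above background. Taking for each GF WT array the dimmest level it could still measure, this is at least 21.5-fold more signal under the Card9-/- label. The bound for A_66_P135237 was at least 6.23-fold in the same direction. At day 7 the signal of A_55_P1986722 was 7.93 to 8.57 in the 4 arrays labelled GF Card9-/- and 2.38 to 2.41 in 3 arrays labelled GF WT. The remaining GF WT array, replicate 1, had a signal of 7.85. The signal was thus high in the arrays labelled with the deletion and low in all but 1 of those labelled GF WT. Every direction below is that of the deposited labels, written as arrays labelled GF Card9-/- minus arrays labelled GF WT. Whether the labels are exchanged and whether the deletion leaves a transcript with these bases were not tested. Were the labels exchanged on all arrays, every difference and contrast below would keep its size and turn its sign, including the counts above and below 0. Leaving out the GF WT replicate 1 array of day 7 gave 0 probes past the threshold as well.

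Between 54.5% and 64.9% of spots at day 0 and between 42.2% and 57.1% at day 7 were well above background, with group medians of 60.5% (labelled GF Card9-/-) and 61.2% (GF WT) at day 0 and of 51.8% and 47.8% at day 7. All 4 day 0 slides held both genotypes, and they were scanned in 2 sessions that each held both. At day 7, 2 of 6 slides held both genotypes (replicates 2 and 2.1 labelled GF Card9-/-, 4 and 6 labelled GF WT). The tissue of every group carried the markers of colon, since each of the 16 tested colonocyte genes was well above background on at least 1 array of every group. Single arrays differed. Of these genes Aqp8 was 9.56 in day 0 GF WT replicate 6, against 15.47 to 17.12 in the other day 0 arrays. The small intestine gene Sis was 12.72 there, against 5.44 to 8.22. The mean deviation of that array over all 16 colonocyte genes was -0.30, near the -0.26 of day 0 GF WT replicate 2. Pancreas genes were also present, unevenly. Their mean deviation from the centre of the day was highest in 3 arrays, all labelled GF Card9-/- (day 0 replicate 7, day 7 replicates 2.1 and 6), and the medians without them are given after the pancreas genes for each list described here that moved by over 1.5 times.

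No probe had a contrast past an adjusted p of 0.05 in limma (0 of 23633 probes, 0%), and none was past 0.10. Adjusted p-values began at 0.712. An unadjusted p under 0.05 was reached by 1256 probes, of which 398 (1.68% of those tested) had a contrast above 0 and 858 (3.63%) below 0. The counts past the adjusted threshold were also 0 with a single variance for both days (1688 unadjusted) and with each day fitted alone (1036 unadjusted).

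The 858 probes below 0 mostly crossed sides. Of these, 788 had a day 0 difference above 0 and a day 7 difference below 0, 67 had both below 0 and 3 both above. Of the 398 probes above 0, 335 went from lower at day 0 to higher at day 7, and 63 were higher at both days. This crossing is in part a property of the measure, because a contrast is large when its 2 terms have opposite signs. Over all probes, 51.4% of contrasts were above 0, with a median of 0.011, and 51.5% of probes had the same sign at both days.

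**Figure D1:**
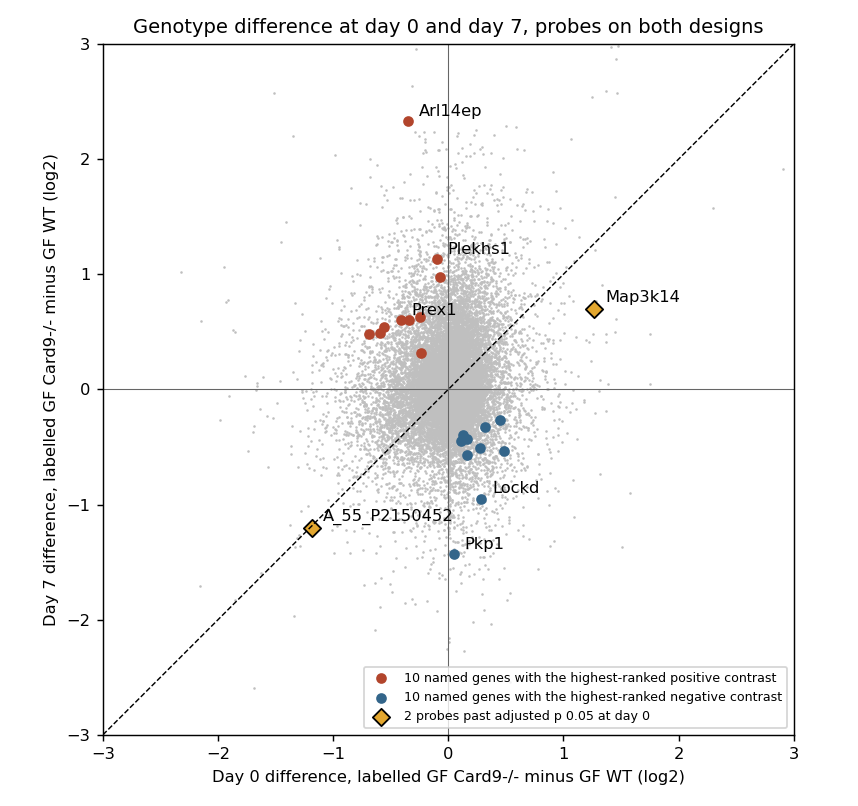
Each grey point is a probe on both designs, placed by the log2 difference between arrays labelled GF Card9-/- and GF WT at day 0 (x axis) and at day 7 (y axis), and the dashed line marks an equal difference at both days. The cloud is taller than it is wide, the 10 named genes with the highest-ranked positive contrast lie above the line and the 10 with the highest-ranked negative contrast below it, and 20 probes lie beyond the axes at 3.

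The spread limited what could be seen. The residual SD of a probe had a median of 0.265 at day 0 and 0.381 at day 7, and the day 7 difference was the larger in size for 65.0% of probes. The contrast had a median standard error of 0.333 and a 95% interval that reached 0.699 to either side of the estimate in the median probe. The 1305 probes with a contrast of at least 1 in size (857 above 0, 448 below) are thus not distinguished by size alone from the spread of the arrays.

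The rule for named genes took 20 genes, the 10 with the lowest unadjusted p in each direction among probes well above background on at least 1 array of each group. None passed the adjusted threshold (adjusted p = 0.712 or 0.808 in limma), and they were chosen by the contrast itself, so their values are a description. The gene with the most negative of these contrasts relative to its error was Lockd, a long noncoding RNA downstream of the cell cycle inhibitor gene Cdkn1b. At day 0 its log2 signal was 9.60 to 10.09 (median 9.85) in the arrays labelled GF Card9-/- and 9.13 to 9.77 (median 9.61) in those labelled GF WT. At day 7 it was 7.95, 8.07, 7.76 and 7.67 in the arrays labelled GF Card9-/- and 8.98, 9.20, 8.26 and 8.80 in those labelled GF WT. The day 0 groups overlapped and the day 7 groups did not. The difference was 0.29 at day 0 and -0.95 at day 7, a contrast of -1.24 (standard error 0.24, 95% interval -1.74 to -0.73). Over the day 0 sessions taken separately it was -1.26 and -1.20, and over day 7 slides with both genotypes -1.27.

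The other genes taken by the rule with a contrast below 0 had varied roles. For Hmgn2, a nucleosome-binding protein, the day 7 signal was 11.67, 11.73, 11.43 and 11.67 in the arrays labelled GF Card9-/- and 12.10, 12.04, 12.14 and 12.01 in those labelled GF WT. Its day 0 difference was 0.11 and its day 7 difference -0.45, a contrast of -0.56 (SE 0.12). The other 2 Hmgn2 probes had contrasts of -0.44 and -0.46, although their day 7 groups overlapped. Pcgf6, a Polycomb group protein, had a contrast of -0.73 (SE 0.16). Ints13, a subunit of the Integrator complex that processes small nuclear RNAs, had -0.60 (SE 0.13), and Bdp1, a part of the RNA polymerase III initiation factor TFIIIB, had -0.78 (SE 0.20), with -0.33 at its other probe and, for the first probe, -0.48 over the day 7 slides with both genotypes. Uspl1, a SUMO protease, had -0.72, Tent4a, a non-canonical poly(A) polymerase, -0.52, and Ppid, a cyclophilin, -0.64.

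Pkp1, also with a contrast below 0, encodes plakophilin 1 of desmosomes, the junctions that hold epithelial cells together. Its signal at day 0 was 10.96 to 11.68 (median 11.08) in the arrays labelled GF Card9-/- and 10.92 to 11.33 (median 11.15) in those labelled GF WT. At day 7 it was 9.00, 9.15, 8.32 and 7.54 in the former and 10.43, 9.34, 10.58 and 9.39 in the latter, so that groups that overlapped at day 0 stood apart at day 7. The contrast was -1.48 (SE 0.37), but -0.34 over the day 7 slides with both genotypes.

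Among the genes with a contrast above 0, Prex1 encodes a guanine nucleotide exchange factor that activates Rac in neutrophils and other cells. At day 0 its signal was 9.27 to 10.10 (median 9.66) in the arrays labelled GF Card9-/- and 9.99 to 10.28 (median 10.11) in those labelled GF WT. At day 7 it was 9.72, 10.43, 9.998 and 10.21 in the former and 9.32, 9.71, 9.48 and 9.44 in the latter. Its difference thus turned from -0.41 to 0.60, a contrast of 1.02 (SE 0.25), and was 0.75 without the 3 arrays with the highest pancreas signal. Adamtsl5, a secreted matrix protein, had 1.11 (SE 0.29), and Slc46a3, a lysosomal transporter, 1.16 (SE 0.30). Plekhs1 had 1.23 (SE 0.36) and differed almost wholly at day 7, where 4 of 4 arrays labelled GF Card9-/- and 1 of 4 labelled GF WT were well above background. Its contrast was 0.52 with normexp background correction.

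The others were 2410022M11Rik (1.08), 2310009A05Rik (1.05), 4931406C07Rik (0.94) and 9530082P21Rik (0.87), for which no function is given here, together with Irf2bpl and Arl14ep. For the last pair the probes of the gene disagreed. Irf2bpl had a contrast of 0.55 (SE 0.14) at one probe and -0.12 at another, which had about the same day 0 difference (-0.23 and -0.22) and the opposite day 7 difference (0.32 and -0.34). Arl14ep had 2.68 (SE 0.66) at a probe well above background on only 7 of 21 arrays, where day 7 replicate 6 labelled GF Card9-/- had 7.64 against 4.31 to 4.84 in the other 3. Its brighter probe, well above background on all arrays, had 0.22. With dim values raised to the lowest measurable level Arl14ep had 0.30 and 2310009A05Rik 0.42. Over the day 7 slides with both genotypes Irf2bpl had 0.23 and 4931406C07Rik 0.51.

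**Figure D2:**
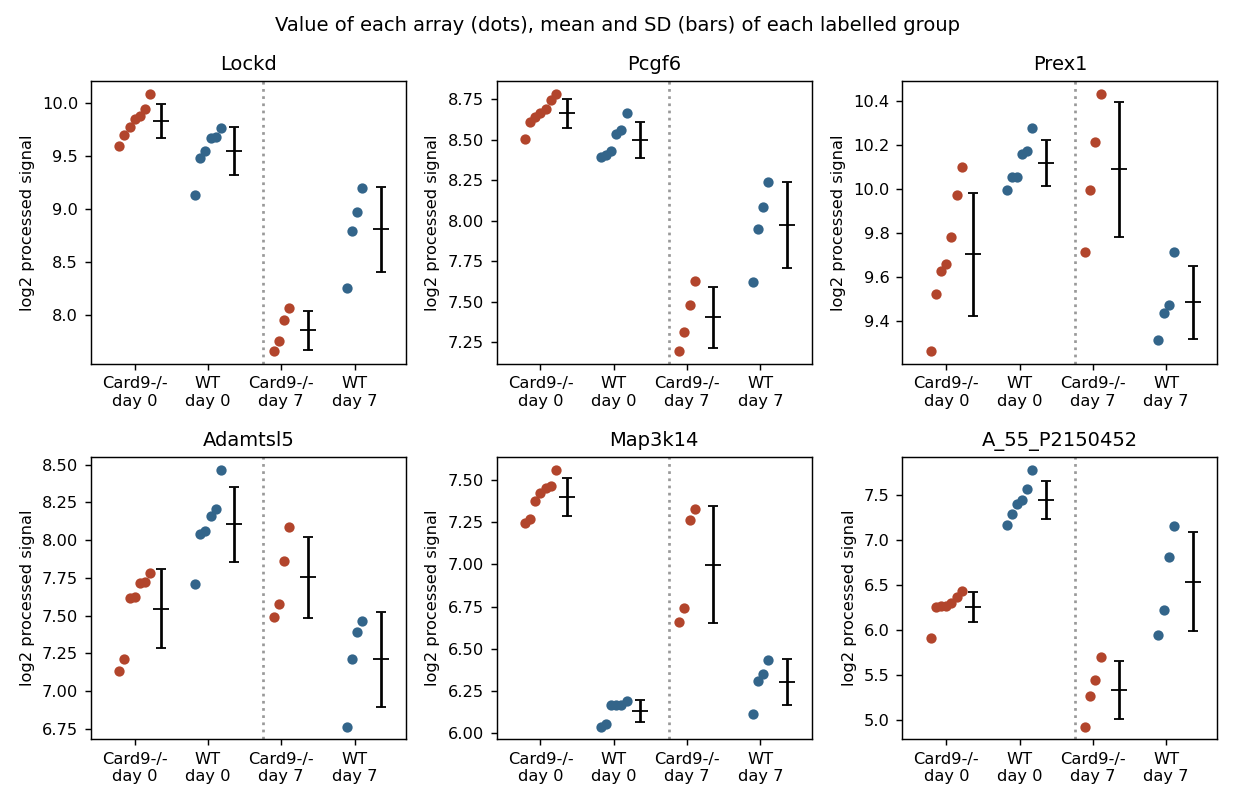
Log2 processed signal of every array (dots) for 6 probes in the 4 labelled groups, with bars for mean and SD; the dotted line separates the days, which are on different designs and are not to be compared across it. For Lockd the groups overlap at day 0 and are apart at day 7, for Prex1 and Adamtsl5 the order of the group means turns, and for Map3k14 and A_55_P2150452 the groups are apart at both days.

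The day 0 term of the contrast had 2 probes past an adjusted p of 0.05 (0.00846% of those tested) and 14 past 0.10 (0.0592%), with 1508 at an unadjusted p under 0.05. The day 7 term had 0 (0%), with 800 unadjusted and a lowest adjusted p of 0.202. The day 7 arrays were not used to find the day 0 probes, which makes them a separate reading of those differences. The sequences of the 2 probes are given because both were read with the same 60 bases on either design.
Map3k14 A_55_P1988664, chr11:103101069-103101128: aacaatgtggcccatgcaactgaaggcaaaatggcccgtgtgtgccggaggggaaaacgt
A_55_P2150452, chr2:149158832-149158891: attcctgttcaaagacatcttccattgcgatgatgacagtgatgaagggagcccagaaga

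Map3k14 encodes NIK, the kinase that starts the noncanonical NF-kappaB pathway. At day 0 its probe had a signal of 7.25 to 7.56 (median 7.43) in the arrays labelled GF Card9-/- and 6.04 to 6.19 (median 6.17) in those labelled GF WT, a difference of 1.27 (SE 0.059, adjusted p = 8.57e-07 in limma). At day 7 the signal was 6.74, 6.66, 7.27 and 7.33 in the arrays labelled GF Card9-/- and 6.35, 6.31, 6.44 and 6.11 in those labelled GF WT. The groups were apart at both days, and the day 7 difference of 0.70 (SE 0.19) was the smaller, with a contrast of -0.57 (SE 0.17, adjusted p = 0.786), which was -0.17 with the replicate number as a block. A second, brighter Map3k14 probe, A_52_P364130, showed no such difference, with -0.025 at day 0 and 0.092 at day 7. The difference therefore belongs to one of the 2 probes and not to the level of the gene as both measure it.

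A_55_P2150452 carries no gene name here. Its signal at day 0 was 5.92 to 6.43 (median 6.27) in the arrays labelled GF Card9-/- and 7.17 to 7.78 (median 7.42) in those labelled GF WT, a difference of -1.18 (SE 0.10, adjusted p = 0.000791 in limma). At day 7 it was 5.70, 5.44, 4.93 and 5.26 in the former and 5.95, 6.22, 6.81 and 7.16 in the latter, a difference of -1.20 (SE 0.30). With a contrast of -0.016 (95% interval -0.60 to 0.57), the difference was of about the same size at both days.

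Of the 14 probes past 0.10 at day 0, 5 had the same sign at day 7, against 51.5% of all tested probes. Groups that did not overlap at day 7 were found for 4 of the 14, against 538 of all tested probes (2.28%). The 4 were picked out after their values were seen. Besides Map3k14 and A_55_P2150452 they were Trub2 and Entpd4. For Trub2, a pseudouridine synthase, the day 7 signal at probe A_51_P104933 was 12.70, 12.73, 12.57 and 12.71 in the arrays labelled GF Card9-/- and 11.77, 11.90, 12.29 and 12.11 in those labelled GF WT. The difference was 0.46 at day 0 and 0.66 at day 7. Another Trub2 probe past 0.10 at day 0 (0.75) had a difference of 0.20 with a standard error of 0.88 at day 7, where GF WT replicate 5 had 8.63 against 4.19 to 5.21 in the other 3.

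For Entpd4, a Golgi nucleotidase, the difference was -0.64 at day 0 and -0.77 at day 7, and a second probe gave -0.78 and -0.995, with groups apart at both days in the first probe and at day 7 alone in the second. A separate gene, Entpd4b, is listed next to Entpd4 on chromosome 14, and which of them the probes read is uncertain. The remaining probes past 0.10 had differences of -0.27 to 0.49 at day 7. Among them Dnaja1, a heat shock protein 40 family chaperone, went from 0.58 to -0.15 (contrast -0.73, SE 0.24), and 2410022M11Rik turned from -0.59 to 0.49.

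Of the 14 probes, 6 (42.9%) lay on chromosome 2, which also holds Card9, against 7.95% of the 23494 tested probes with a position. They were 5 different features, chosen after their values were seen. The 2 Trub2 probes lay 3.42 and 3.43 Mb from the Card9 probes, Rpp38 23.0 Mb, Zc3h6 103 Mb, A_55_P2150452 123 Mb and Rbm12 130 Mb. Among the 1256 probes with an unadjusted p under 0.05 for the contrast, 7.69% lay on chromosome 2, close to the share of all probes.

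The genes measured elsewhere in the study had contrasts whose 95% intervals held 0, and the intervals were of very different width. Reg3b and Reg3g encode antimicrobial lectins that IL-22 induces in the epithelium. Reg3b had a contrast of 1.40 with a standard error of 3.43. Its day 0 signal was 2.45 to 6.51 in the arrays labelled GF Card9-/- and 2.45 to 14.62 in those labelled GF WT, where replicate 6 held the 14.62 and the next highest array 4.47. At day 7 it was 2.50, 7.42, 4.63 and 7.89 in the former and 2.69, 5.69, 4.84 and 6.71 in the latter, and the groups overlapped. Reg3g had 0.60 (SE 1.66) and the same day 0 GF WT array was highest at 11.91. Without the day 0 slide that held this array the contrasts were -1.21 and -0.54.

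Il1b, a cytokine of activated myeloid cells, had a contrast of 0.18 (SE 1.29, 95% interval -2.52 to 2.88), with day 7 signals of 6.11, 5.90, 7.26 and 6.94 in the arrays labelled GF Card9-/- and 5.67, 7.11, 6.58 and 6.49 in those labelled GF WT. Tnf had 0.61 (SE 0.60), and 0.34 to 1.12 with 1 array left out. Ahr, the receptor for tryptophan-derived ligands that controls Il22, had -0.046 (95% interval -0.56 to 0.46). Gapdh, a reference enzyme, had 0.070 (95% interval -0.15 to 0.29), the narrowest interval of these genes. Il22 (0.11, SE 0.63) and Il17a (-0.88, SE 0.47) were not well above background on any array, and Il6 and Il10 were not detected at both days.

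Gene lists were described by the median contrast of their tested members, beside the median of 0.011 and the 51.4% above 0 over all probes. Of 27 lists, 23 had a median above 0, but this count was 16 over the day 7 slides with both genotypes and 18 with dim values raised to the lowest measurable level. The 4 below it were cell cycle (-0.93), immediate early and heat shock (-0.64), mesothelium (-0.28) and crypt stem and Wnt target (-0.061). With 1 array left out, the mesothelium median spanned -0.89 to -0.020 and the crypt stem median -0.22 to 0.022. Members of a list are measured on the same arrays, so their number is not a number of independent readings.

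**Figure D3:**
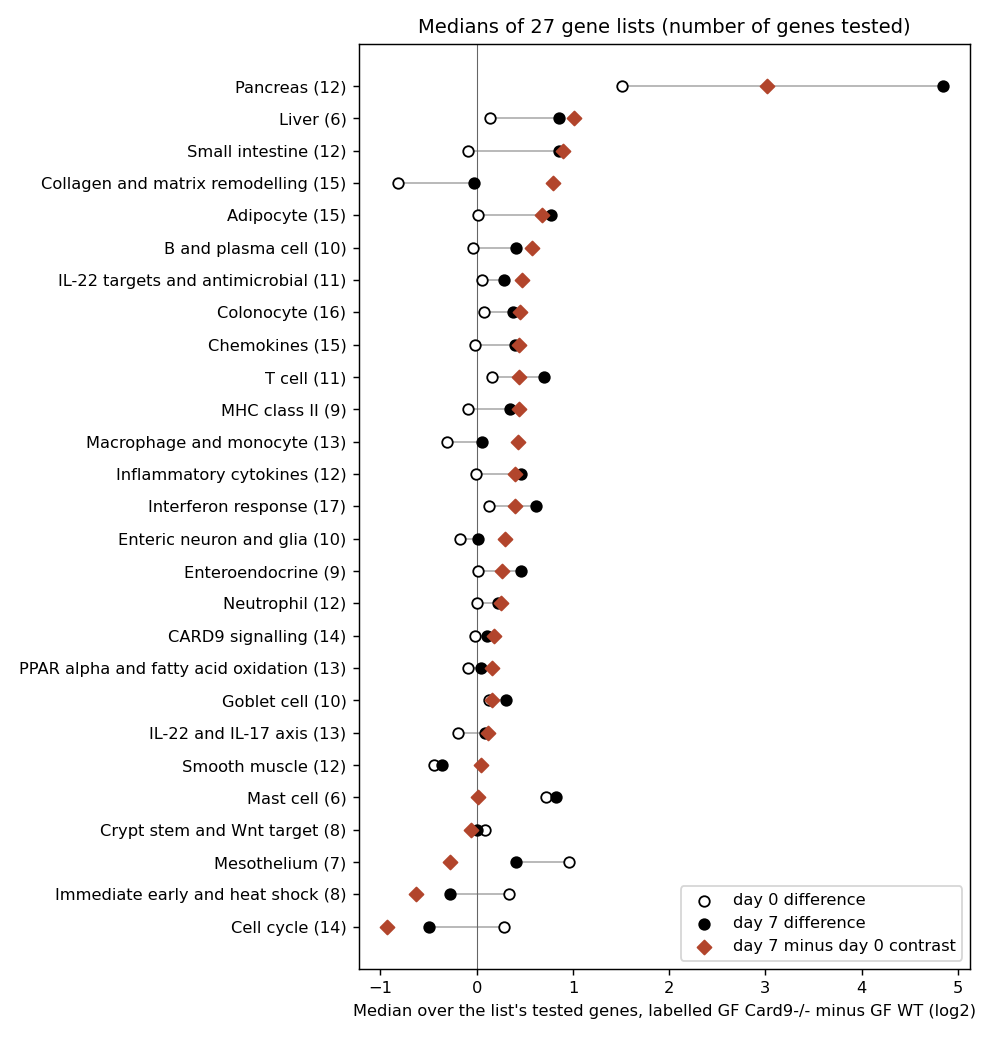
Median over the tested genes of each of 27 lists (number in brackets) of the log2 difference between arrays labelled GF Card9-/- and GF WT at day 0 (open circles), at day 7 (filled circles) and of the contrast (diamonds). Cell cycle lies furthest to the left with a contrast of -0.93, and pancreas furthest to the right with 3.01.

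The cell cycle list divided by the role of its genes. Of 14 tested members, 9 had a contrast below 0 and 5 of these had an unadjusted p under 0.05 (35.7% of the list, against 3.63% of all probes in that direction), while none passed the adjusted threshold. The 5, named after their values were seen, were Ccnb1 (-1.37, SE 0.52), the cyclin of mitotic entry, Cdc20 (-1.26, SE 0.41), an activator of the anaphase-promoting complex, Plk1 (-1.22, SE 0.49), a mitotic kinase, Ccna2 (-1.11, SE 0.47), the cyclin of S and G2 phase, and Mki67 (-1.09, SE 0.38), a chromosome surface protein of dividing cells. Birc5, Bub1 and Top2a, which act in chromosome segregation, had -1.11, -1.003 and -0.87.

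The 6 genes of DNA replication had smaller contrasts, in either direction. Mcm2, Mcm3, Mcm5 and Mcm6, subunits of the replicative helicase, had contrasts of 0.085, 0.31, -0.20 and 0.10. Rrm2, a subunit of ribonucleotide reductase, had 0.15 and Ccne1, the cyclin of S phase entry, 0.38. With 1 array left out, Ccne1 spanned 0.14 to 0.82 and Mcm3 0.20 to 0.45. The division of the list by role was drawn after the values were seen. Since the contrast is made of both terms, their values describe the division and add nothing to it. The 8 mitotic or late genes all had a day 0 difference above 0 (0.26 to 0.57) and a day 7 difference below 0 (-0.85 to -0.43), whereas the 6 replication genes lay between -0.092 and 0.20 at day 0 and between -0.20 and 0.58 at day 7.

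Single arrays show the overlap behind these values. The Cdc20 signal at day 0 was 11.55 to 12.03 (median 11.86) in the arrays labelled GF Card9-/- and 10.65 to 12.07 (median 11.44) in those labelled GF WT. At day 7 it was 9.93, 10.76, 9.96 and 10.18 in the former and 11.21, 11.77, 10.31 and 10.95 in the latter. Ccnb1 at day 7 was 7.92, 8.81, 7.87 and 8.33 against 9.14, 9.92, 8.05 and 9.23. In both genes 3 of 4 GF WT arrays lay above all arrays labelled GF Card9-/- and the fourth, replicate 5, among them. For Mcm3 the day 7 signals were 8.17, 8.93, 8.71 and 8.55 against 8.11, 8.62, 8.11 and 8.44, with no such order.

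The list median was -0.59 with normexp background correction, -0.68 with the authors' log2 table, -1.15 and -0.71 with day 0 session 1 or 2 alone, and -1.33 over the day 7 slides with both genotypes. It was -1.48 without the 3 arrays with the highest pancreas signal, so the value was larger in size without them. The mean over the list of each array's deviation from its day overlapped between genotypes at both days.

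**Figure D4:**
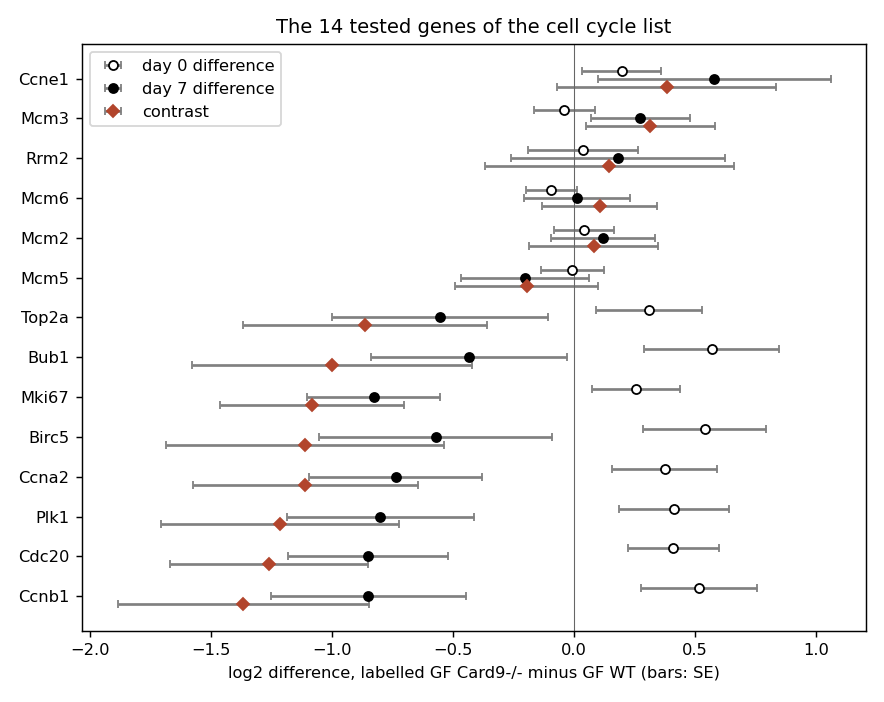
Log2 difference between arrays labelled GF Card9-/- and GF WT for the 14 tested cell cycle genes at day 0 (open circles), at day 7 (filled circles) and as the contrast (diamonds), with standard errors as bars. The lower 8 genes, from Top2a to Ccnb1, lie right of 0 at day 0 and left of it at day 7, and the upper 6 have contrasts of -0.20 to 0.38, with Ccne1 at 0.58 at day 7.

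The immediate early and heat shock list, whose genes respond within minutes to stress and growth signals, had 7 of 8 members below 0, from 0.34 at day 0 to -0.27 at day 7 in the median. Atf3, a stress-induced transcription factor, had -1.02 (SE 0.67) and Fosb, an AP-1 subunit, -1.01 (SE 0.80), while Egr1 had -0.077 and Hspb1, a small heat shock protein, 0.36. Fosb at day 7 was 8.03, 6.78, 8.90 and 8.73 in the arrays labelled GF Card9-/- and 6.93, 10.43, 8.001 and 9.60 in those labelled GF WT, so the groups overlapped widely. Its contrast was -0.45 and -1.62 without day 7 GF WT replicates 4 and 1, and that of Atf3 was -0.67 without replicate 4. Over the day 7 slides with both genotypes the list median was -1.20, with -2.99 for Fosb, -2.10 for Atf3 and -1.74 for Egr1.

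Immune lists lay on the other side. All 17 tested interferon response genes had a contrast above 0, with a median of 0.40, but none reached an unadjusted p under 0.05. Zbp1, a sensor of nucleic acids, had 0.94 (SE 0.82) and Mx1, an antiviral GTPase, 0.87 (SE 0.47), while Gbp2 and Mx2 had 0.027 and 0.0031. Mx1 at day 7 was 6.06, 7.29, 7.55 and 7.25 in the arrays labelled GF Card9-/- and 5.91, 6.70, 5.24 and 6.93 in those labelled GF WT. Day 7 replicate 2 labelled GF Card9-/- lay among the GF WT arrays for this gene and for the list. Over the day 7 slides with both genotypes, which hold part of the arrays, the list median was -0.22. It was 0.24 and 0.67 without day 7 Card9-/- replicates 4 and 2. Without day 7 GF WT replicate 5 the contrast was 0.36 for Zbp1 and 0.55 for Mx1, and without Card9-/- replicate 2 it was 1.51 for Zbp1.

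Of 15 chemokine and chemokine receptor genes, 14 had a contrast above 0 (median 0.44). The median was 0.27 without day 0 GF WT replicate 2, 0.22 with day 0 session 2 alone and 0.27 over the day 7 slides with both genotypes. Ccl3, a ligand that draws monocytes and neutrophils, had the highest, 2.11 (SE 0.54, adjusted p = 0.712 in limma). Its day 7 signals were 4.12, 5.03, 5.76 and 4.31 in the arrays labelled GF Card9-/- and 2.57, 2.66, 2.55 and 3.07 in those labelled GF WT. The day 7 groups were apart, but the probe was well above background on only 2 of the 21 arrays, and with dim values raised to the lowest measurable level its contrast was -0.20. Ccl2, which draws monocytes, had 1.13 (SE 1.03) and 0.087 over those slides. Cxcl5, a neutrophil chemokine not well above background on any array, had 0.073, and Cxcl10, an interferon-induced T cell chemokine, -0.72 (SE 1.09). With 1 array left out, Ccl2 spanned 0.82 to 1.84 and Cxcl10 -0.95 to -0.31.

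Lists of the cells that chemokines draw had medians above 0 that varied with single arrays. The median was 0.43 for macrophage and monocyte genes (12 of 13 above 0), 0.44 for T cell genes, 0.57 for B and plasma cell genes, 0.43 for MHC class II genes (9 of 9 above 0) and 0.25 for neutrophil genes. With 1 array left out, the MHC class II median spanned 0.13 (without day 7 Card9-/- replicate 6) to 0.76 (without day 0 GF WT replicate 5). The B and plasma cell median spanned 0.25 to 1.05, the values without day 7 Card9-/- replicates 2 and 2.1. The T cell median spanned 0.21 to 0.78, without replicate 6 labelled Card9-/- of day 7 and of day 0, and the macrophage median 0.27 to 0.75, without replicates 4 and 5 labelled GF WT of either day. For the macrophage list the day 0 median was -0.30 and the day 7 median 0.052, so its contrast came from the day 0 term. For the T cell list these were 0.15 and 0.70. Of the defining neutrophil markers, Mpo and Ngp were not detected at both days and S100a8 was well above background on 2 of 21 arrays.

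The IL-22 target and antimicrobial list had 9 of 11 members above 0 and a median of 0.47. The median was 0.22 without day 0 GF WT replicate 6, 0.19 with normexp background correction, 0.18 over probes well above background and 0.13 with dim values raised to the lowest measurable level. Retnlb, a goblet cell protein that is induced by bacteria and in worm infection, had 1.67 (SE 1.89), with day 7 signals of 10.15, 15.26, 13.77 and 14.28 in the arrays labelled GF Card9-/- and 9.61, 12.33, 6.41 and 13.04 in those labelled GF WT. Its contrast was 0.35 without day 7 GF WT replicate 5. Slpi, a protease inhibitor, had -0.21 and Reg4, a lectin of enteroendocrine and goblet cells, -0.91 (SE 1.23), with -0.17 and -1.46 without day 7 GF WT replicates 5 and 6. The colonocyte list had a median of 0.45 (12 of 16 above 0), which was 0.091 without day 7 GF WT replicate 5.

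The CARD9 pathway showed no common direction. Of 14 tested members, 8 were above 0, with a median of 0.18, and none reached an unadjusted p under 0.05. Among the receptors, Clec4n, which encodes Dectin-2, had 0.93 (SE 0.92), Clec4d 0.71 (SE 1.08) and Clec7a, which encodes Dectin-1, 0.49 (SE 0.86). Clec4d had 0.26 without day 7 GF WT replicate 6, 0.18 with dim values raised to the lowest measurable level and 0.34 without the 3 arrays with the highest pancreas signal, where Clec4n had 0.55. The list median was 0.11 without day 7 Card9-/- replicate 6. Clec4n at day 7 was 8.95, 9.30, 9.85 and 10.19 in the arrays labelled GF Card9-/- and 9.31, 8.89, 9.71 and 8.55 in those labelled GF WT, which overlapped. The kinase Syk had 0.21 (SE 0.21), the paracaspase Malt1 -0.076 (SE 0.21), the CARD9 kinase Prkcd -0.14 (SE 0.22) and the ubiquitin ligase Traf6 -0.22 (SE 0.29). Bcl10, the direct partner of CARD9, had no named probe on both designs.

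Collagen and matrix genes had a median of 0.80, with 14 of 15 members above 0. The median was -0.82 at day 0 and -0.032 at day 7. Smooth muscle genes were lower under the Card9-/- label at both days. Their median was -0.45 at day 0 and -0.36 at day 7, with 1 of 12 above 0 at each, and the median contrast was 0.045. Their part in the collagen values was not tested. The lowest array of day 0 was replicate 5 labelled GF Card9-/- in both lists, with mean deviations of -1.86 for collagen and -1.90 for smooth muscle. The 2 highest were the proteases Mmp10 (3.24, SE 1.37) and Mmp13 (1.72, SE 1.46), and the 2 lowest Mmp7 (0.33) and Mmp14 (-0.15). Unlike the list median, the highest pair differed mostly at day 7, where Mmp10 had 2.96 and Mmp13 1.33, against -0.28 and -0.39 at day 0. Over the day 7 slides with both genotypes Mmp10 had 0.49, and with normexp background correction it had 1.92 and Mmp13 1.03. The list median was 0.53 without day 7 GF WT replicate 1. Mmp10 at day 7 was 4.38, 9.83, 9.19 and 9.31 in the arrays labelled GF Card9-/- and 2.97, 5.80, 4.14 and 7.98 in those labelled GF WT, with replicate 2 of the former among the latter. Col1a1, a chain of type I collagen, turned from -1.05 at day 0 to -0.032 at day 7.

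Genes of other organs were also read, and none passed the adjusted threshold. All 12 tested pancreas genes had a contrast above 0 (median 3.01, and 1.51 at day 0 and 4.84 at day 7). The highest were Amy2a5 (5.17, SE 4.24), an amylase, and Cpb1 (4.55, SE 4.03), a carboxypeptidase, and the lowest Rnase1 (1.51) and Clps (1.22), a lipase cofactor. With 1 array left out, Amy2a5 spanned 3.22 to 7.22 and Cpb1 2.49 to 6.40. Amy2a5 at day 7 was 6.00, 14.76, 9.79 and 17.99 in the arrays labelled GF Card9-/- and 6.01, 4.32, 2.68 and 4.90 in those labelled GF WT. Before DSS it was 18.52 in replicate 7 labelled GF Card9-/- and 3.05 to 6.06 in the other 6. The pancreas deviation score was 10.86 in that array against at most -0.081 in the others of day 0, and at day 7 it was 8.36 and 4.15 in replicates 6 and 2.1. Replicate 4 of the same group, which stays in the setting without 3 arrays, had -0.58, above the -2.55 to -2.26 of the other 5 day 7 arrays. Without day 7 Card9-/- replicate 6 alone the pancreas median was 0.81, and without day 0 replicate 7 alone 4.96. Small intestine (0.90), liver (1.01) and adipocyte genes (0.68) also had medians above 0, although in the liver list only 4 of 6 members were above 0. With 1 array left out, the liver median spanned 0.50 to 1.19 and the adipocyte median 0.38 to 1.01. With dim values raised to the lowest measurable level the liver median was 0.075 and the small intestine median 0.35, and with the replicate number as a block the adipocyte median was 0.086. The part of these genes in the other lists was not tested.

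Without the 3 arrays with the highest pancreas signal, an alternative chosen after seeing the data, the medians were 0.54 for pancreas, 0.57 for collagen and matrix, 0.22 for chemokines and 0.25 for interferon response genes. They were 0.16 for IL-22 targets, 0.19 for colonocytes, 0.20 for macrophages and monocytes, 0.26 for T cells, 0.90 for B and plasma cells, 0.12 for neutrophils, 0.27 for adipocytes and -0.61 for mesothelium. The median for inflammatory cytokines went from 0.40 to -0.058. Among single genes the contrast was 1.78 for Mmp10, 0.73 for Mmp13, 0.37 for Ccl2, 0.41 for Retnlb, 0.32 for Zbp1, 0.53 for 9530082P21Rik and 2.90 for Amy2a5. The count past the adjusted threshold was 2.

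**Figure D5:**
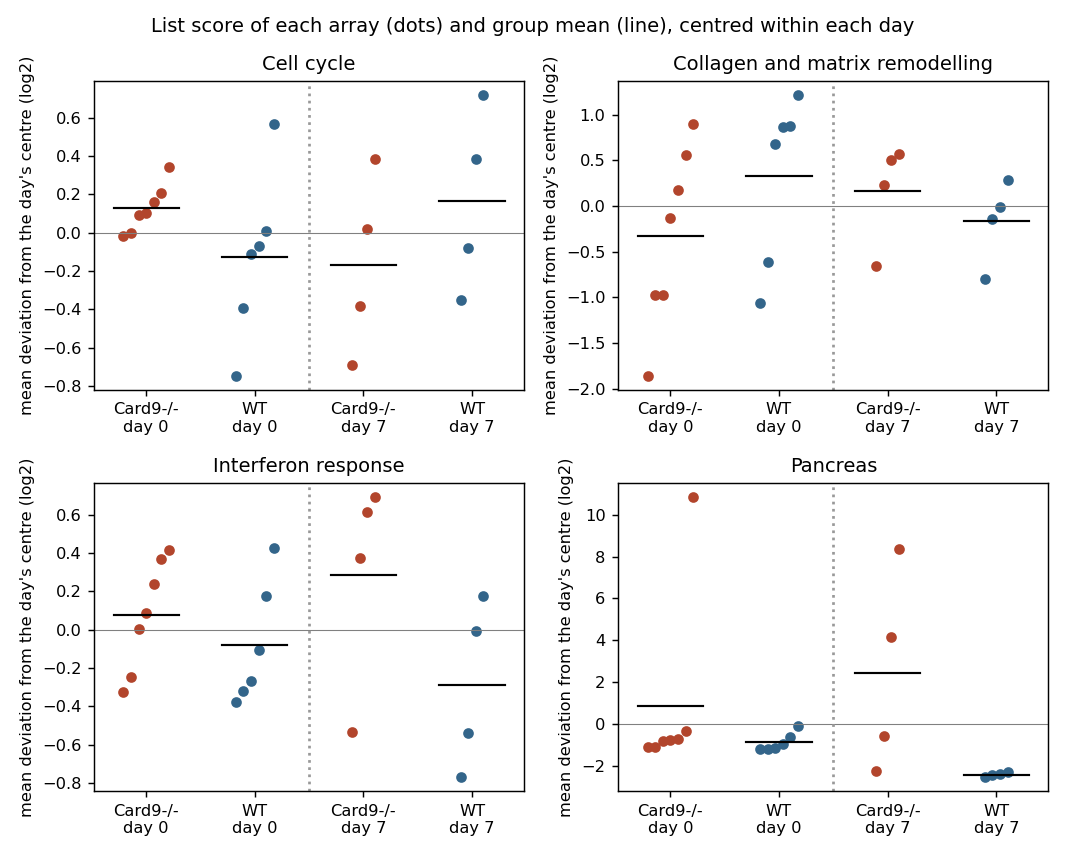
Mean deviation of each array from the centre of its day over the genes of 4 lists (dots, log2), with group means as lines, for arrays labelled GF Card9-/- and GF WT at day 0 and day 7. The genotypes overlap for cell cycle, collagen and interferon response at both days, and 3 arrays labelled GF Card9-/- lie far above the rest for pancreas.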

How the data were processed

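Colon RNA was hybridized to single-color (Cy3) Agilent arrays, of design 028005 at day 7 and 074809 at day 0. Per the file headers, the authors extracted spot intensities with Agilent Feature Extraction 10.7.3.1. These deposited intensities are on a linear scale, before any normalization between arrays, and a deposited p-value compares each spot with its background. The authors also deposited log2 values, which were used as an alternative. Processed signals were log2-transformed, brought to common quantiles within each day, and averaged over a probe's spots without outliers. A probe on both designs was tested when, at each day, 60% or more of the arrays of either genotype had a p-value under 0.05. Names came from RefSeq for 15865 probes and from the files for 3134, and 4634 had none.

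The 4 groups were fitted with limma 3.58.1 in R 4.3.3, with 1 weight per day (1.40 at day 0, 0.578 at day 7), eBayes and Benjamini-Hochberg adjustment. Per-day differences came from fits of each day alone. The genes named were up to 10 in each direction (the largest contrasts past the threshold, filled by lowest p), 11 genes of the study and controls, and the 2 highest and 2 lowest members of the lists described gene by gene (other lists are given by count and median). An item that this rule took is not reported here. The comparison, members and lists (402 genes) were chosen with earlier results of these data known. Scripts were tested on simulated data. Day 7 replicates 2 and 2.1 differed by an SD of 0.819, against a median of 0.872 in other pairs, and were counted as 2 samples. The number of arrays limits the precision.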

Additional observations from a re-analysis of the deposited data

Results flagged for a closer look

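The 372 combinations of a reported gene or list with a group of arrays were searched for a single array far from the rest of its group, and 36 were found (27 for genes, 9 for lists). Chance alone gives about 1 in 20 groups. Values are log2 signals, and list scores are mean deviations from the centre of the day. No cause was tested.

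In the arrays labelled GF Card9-/- at day 0, replicate 7 was far above the others for the pancreas genes Amy2a5 (18.52), Cpb1 (17.39), Rnase1 (13.19) and Clps (17.71) and for the pancreas score (10.86), and far below them for Il1b (2.80). Replicate 5 was high for Il17a (3.99), which is below background, Gbp2 (11.98) and Atf3 (12.70), and low for the adipocyte score (-3.11). Replicate 6 was high for the T cell score (1.94), and replicate 3 low for A_55_P2150452 (5.92). In those labelled GF WT at day 0, replicate 6 was high for Reg3b (14.62), Reg3g (11.91) and the IL-22 target (1.17), small intestine (1.34) and adipocyte scores (1.23), and low for Cxcl10 (6.36). Replicate 2 was high for 2310009A05Rik (6.30) and low for Ppid (9.21), and replicate 5 high for Gapdh (17.83) and Prkcd (13.17).

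In the arrays labelled GF Card9-/- at day 7, replicate 2 was low for Mmp10 (4.38), Ccl2 (5.47), Clec4d (4.72) and Gapdh (17.48). Replicate 4 was low for Prkcd (11.68) and Trub2 (12.57) and high for Traf6 (8.65). Replicate 6 was high for Arl14ep (7.64), and replicate 2.1 for the fatty acid oxidation score (0.51). In those labelled GF WT, replicate 6 was high for Arl14ep (4.23), Rnase1 (3.68) and the liver score (0.036), and replicate 1 was high for Cxcl10 (9.79) and low for the enteric neuron and glia score (-1.20).

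Card9 probes lie outside the contrast and gave a signal above the GF WT level where the labels give a deletion. The mean in the arrays labelled GF Card9-/- was 8.90 and 7.11 for the day 0 probes and 8.13 for the day 7 probe, and day 7 GF WT replicate 1 had 7.85.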

How the results depend on the processing

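The count of probes with a contrast past the threshold was 0 in 38 of 41 other settings. It was 1 with only the second day 0 session (A_52_P160554, an immunoglobulin heavy chain record), 2 with only the day 7 slides that held both genotypes (4921509C19Rik and Gm6999), and 2 without the 3 arrays with the highest pancreas score (the lincRNA probe A_30_P01027749 and Iltifb, an Il22 paralog well above background on 1 array). The probes were named after their values were seen, and the cause was not tested. At an unadjusted p under 0.05 there were 690 to 2302 probes. Raising dim values to the lowest measurable level moved the median of all contrasts to -0.13, the share above 0 to 35.4% and the unadjusted split to 210 above and 1059 below 0, against 398 and 858 as reported, so low signal limits the directions of dim genes. The day 7 count stayed 0 in every setting run. The day 0 count, 2 as reported, was 6 with normexp, 0 and 1 with the first or second session alone, 14 at an adjusted p under 0.10, 5 without the fourth day 0 slide, and 2 to 6 with single arrays left out.

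Same-numbered arrays of the genotypes deviated together in some pairs but not in all (correlations of -0.030 to 0.44 at day 0, 0.039 and 0.17 at day 7). The correlation was best with their own number in 3 of 8 pairs, and the numbers were not taken as pairs in the reported fit. With the replicate number as a block, 0 probes passed (2302 unadjusted, lowest adjusted p 0.138 in limma), and the colonocyte median was -0.093, Reg3g -0.60, Il1b -0.017, Tnf -0.10, Ahr 0.35, Traf6 0.21, Mmp7 -0.79 and Mmp14 0.11, all with the sign turned. Of the highest-ranked genes, those smaller in size by over 1.5 times with the block were Bdp1 (-0.43), Plekhs1 (0.71), 2310009A05Rik (0.51) and 4931406C07Rik (0.59).

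The 20 highest-ranked genes kept their direction in every setting that tested them. They were chosen by this contrast on the same arrays, so the kept direction is no separate support. Signs of genes and lists given by value in the report turned as follows, none in a value past the threshold. With each array scaled to its 75th percentile, Il22 was -0.090 and A_55_P2150452 0.031. With quantiles shared by all 21 arrays, Gapdh was -0.048 and Mx2 -0.026. With normexp background correction (offset 50), Il22 was -0.036, Cxcl5 -0.014 and A_55_P2150452 0.14. With the authors' log2 table, Il22 was -0.10 and A_55_P2150452 0.15. With dim values raised to the lowest measurable level, the inflammatory cytokines median was -0.19, the neutrophil median -0.15, Il22 -0.70, Tnf -0.36, Ccl3 -0.20, Cxcl5 -0.67, Mx2 -0.15 and Mmp7 -0.90. With the slide as a random block, Mx2 was -0.072. With only the first day 0 scan session, Il22 was -0.17, Reg3b -1.01, Ahr 0.0096, Cxcl10 0.046, Mx2 -0.25, Mmp7 -0.012, Mmp14 0.086, Rnase1 -0.63 and A_55_P2150452 0.12. With only the second session, Cxcl5 was -0.29 and Gbp2 -0.47. With only the day 7 slides that held both genotypes, the interferon response median was -0.22, the colonocyte median -0.078, Reg3b -0.46, Reg3g -0.52, Il1b -0.71, Ahr 0.036, Prkcd 0.35, Retnlb -1.33, Reg4 1.26, Cxcl5 -0.096, Zbp1 -0.55, Mx1 -0.11, Mx2 -1.06, Ccne1 -0.41, Hspb1 -0.53, Clps -0.23 and A_55_P2150452 0.069. With day 7 replicates 2 and 2.1 averaged, Ahr was 0.0062 and Egr1 0.047. Without the 3 arrays with the highest pancreas score, the inflammatory cytokines median was -0.058, Reg3b -0.44, Il1b -0.093, Tnf -0.082, Ahr 0.19, Gapdh -0.0059, Gbp2 -0.31, Ccne1 -0.087, Mmp7 -0.043 and Rnase1 -0.058. Without the 3 arrays of the fourth day 0 slide, Il22 was -0.059, Reg3b -1.21, Reg3g -0.54, Slpi 0.20, Cxcl10 0.19, Mx2 -0.034, Mmp7 -0.31 and A_55_P2150452 0.0033. With single arrays left out, the contrast spanned -0.11 to 0.35 for Il22, -0.53 to 2.44 for Reg3b, -0.35 to 1.10 for Reg3g, -0.23 to 0.71 for Il1b, -0.16 to 0.10 for Ahr, -0.24 to 0.055 for Prkcd, -0.55 to 0.14 for Slpi, -0.13 to 0.35 for Cxcl5, -0.12 to 0.32 for Gbp2, -0.32 to 0.30 for Mx2, -0.066 to 0.73 for Hspb1, -0.61 to 0.50 for Egr1, -0.16 to 0.70 for Mmp7, -0.26 to 0.011 for Mmp14, -0.25 to 2.97 for Rnase1, -0.082 to 2.05 for Clps and -0.21 to 0.19 for A_55_P2150452. The crypt stem median was 0.0010 over probes well above background and 0.022 without day 7 GF WT replicate 6. Of lists shown only in the plot of list medians, those above 0 there that turned with the day 7 slides that held both genotypes were smooth muscle (-0.90), enteric neuron and glia (-0.57), mast cell (-0.24), goblet cell (-0.15) and enteroendocrine (-0.10). With dim values raised, the IL-22 and IL-17 axis (-0.077), mast cell (-0.37) and smooth muscle (-0.022) turned. The settings without the pancreas-rich arrays or the fourth day 0 slide, and a fit with trended and robust variance, were chosen after seeing the data.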
